A study of Mus musculus with 18 samples.

Results

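Transcripts of 50 genes that carry out mitosis and cytokinesis were followed in mouse embryonic fibroblasts (MEFs) during senescence driven by oncogenic RAS, with and without ribosomal S6 kinases. The genes were chosen by name, not by a rule on measured values, but with earlier results of these data known. All 50 were found by symbol among the 55401 gene identifiers of the deposited count table. MEFs are fibroblasts cultured directly from embryos, of which head and viscera had been removed. RNA-seq covered 18 libraries in 6 groups of 3. In the S6K1 series these were S6K1 wild-type (WT) cells infected with empty retrovirus (EV), S6K1 WT cells infected with retrovirus for constitutively active HRAS (RAS), and RAS-expressing S6K1 knockout (KO) cells. A separate S6K1/S6K2 series held the corresponding WT EV and WT RAS cells and S6K1/S6K2 double knockout (DKO) cells with RAS. S6K1 and S6K2 are encoded by Rps6kb1 and Rps6kb2. Both losses are germline and so present in every cell. Per the study's methods, S6K1 WT and KO cells came from littermate embryos, whereas the DKO cells were bred from S6K2-deficient parents and their WT cells came from other mothers. The age of the cultures at harvest is not given in the labels, and genotype effects without RAS were not measured, since neither knockout was analysed here with EV.

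Entry into mitosis is driven by CDK1 bound to cyclin A or cyclin B, complexes that are held inactive by phosphorylation of CDK1 until late G2. Kinetochores then tie chromosomes to the spindle, the spindle checkpoint holds back the anaphase-promoting complex until every chromosome is attached, and separase cuts cohesin. Kinesins and the central spindle then help divide the cell. Transcripts of these proteins accumulate in G2 and mitosis and are low in arrested cells, because the DREAM complex represses their promoters through the cell cycle genes homology region (CHR) while B-MYB-MuvB and FOXM1 activate them in cycling cells. Senescent fibroblasts have left the cycle for good. In RNA from whole cultures, fewer cycling cells and less of a transcript per cell cannot be told apart.

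The labels were checked first. Levels are in CPM, a gene's reads relative to the size of its library, scaled within a series by the trimmed mean of M values (TMM). They are given as mean ± SD over 3 libraries or library by library in the order of replicates 1, 2 and 3. Rps6kb1 stood at 68.9 ± 6.73 CPM in WT RAS of the S6K1 series against 30.6 ± 6.73 CPM in KO RAS (edgeR adjusted p 0.23, and 0.00010 with the replicate number as a block). Rps6kb2 stood at 25.8 ± 2.67 CPM in WT RAS of the S6K1/S6K2 series, against 2.83 ± 0.186 CPM in DKO RAS. Rps6kb1 was at 80.5 ± 4.44 and 37.4 ± 2.69 CPM in the same groups, so part of its reads remained in DKO as in KO. Hras was 61.7 ± 10.9 CPM in WT EV and 117 ± 2.34 CPM in WT RAS of the S6K1 series. The cell cycle inhibitor gene Cdkn2a was at 126 ± 19.7 and 252 ± 32.3 CPM in the same groups, and at 118 ± 34.0 and 275 ± 8.06 CPM in the S6K1/S6K2 series. Cdkn1a, which encodes the inhibitor p21, was at 568 ± 38.4 and 583 ± 37.1 CPM in WT EV and WT RAS of the S6K1 series. In the S6K1/S6K2 series it was at 507 ± 200 and 657 ± 79.6 CPM. The 10 fibroblast markers were high in every library (summed 13870 to 48547 CPM). Of 14 macrophage markers, none was at 0 in all libraries of any group, and their sum ran from 74.3 CPM (DKO RAS replicate 2) to 3811 CPM (WT RAS replicate 1 of the S6K1 series). Endothelial, epithelial and neural lists summed to at most 15.8, 167 and 38.5 CPM. Muscle markers reached 233 CPM, with Myod1 at 0 in every library.

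Promoter sequence was available from RefSeq (GRCm38.p6) for 43 of the 50 genes, as 45 windows from 250 bases before to 50 bases after a transcript start. Either form of the CHR, TTTGAA or TTCGAA on either strand, was found in 32 of the 43 genes (74.4%) and in 21.7% of all 27025 genes with a window of that length (19.2% of the 32851 windows). The CCAAT box, CCAAT on either strand, was in 30 of the 43 genes (69.8%) and in 41.1% of all genes, and 22 of the 45 windows held it at least 2 times (48.9% against 11.7% of all windows). TTCGAA reads the same on both strands and was counted once per place, a CHR and a CCAAT match may overlap by a letter, and a match describes letters, not a bound site. For 29 of the 43 genes a CHR lay within 50 bases of the start. Of the 47 CHR matches in these promoters 70.2% were that close, against 25.2% of the 7260 matches in all windows. The windows of Cdk1, Ccnb2, Kif11, Top2a and Mki67 are shown because their whole windows carry both motifs and their genes recur in the results, and that of Pttg1 because its transcript went against the others and its window held neither motif. Each runs 5′ to 3′ from 130 bases before to 20 bases after the start on the gene's own strand, with CHR and CCAAT letters in capitals.
Cdk1 (chr10:69352893-69353042, minus strand): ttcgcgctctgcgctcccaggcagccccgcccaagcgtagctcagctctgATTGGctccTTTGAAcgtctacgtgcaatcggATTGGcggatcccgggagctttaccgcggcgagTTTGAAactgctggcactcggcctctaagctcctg
Ccnb2 (chr9:70421535-70421684, minus strand): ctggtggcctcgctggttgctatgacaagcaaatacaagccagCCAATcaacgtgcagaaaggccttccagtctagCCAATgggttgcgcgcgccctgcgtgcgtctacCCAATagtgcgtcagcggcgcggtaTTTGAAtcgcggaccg
Kif11 (chr19:37376252-37376401, plus strand): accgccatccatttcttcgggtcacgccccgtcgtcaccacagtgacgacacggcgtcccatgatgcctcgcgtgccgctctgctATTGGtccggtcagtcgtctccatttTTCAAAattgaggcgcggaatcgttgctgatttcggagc
Top2a (chr11:99024170-99024319, minus strand): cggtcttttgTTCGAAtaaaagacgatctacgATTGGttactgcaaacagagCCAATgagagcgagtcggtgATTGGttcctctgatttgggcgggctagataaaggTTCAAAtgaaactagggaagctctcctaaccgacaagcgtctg
Mki67 (chr7:135716360-135716509, minus strand): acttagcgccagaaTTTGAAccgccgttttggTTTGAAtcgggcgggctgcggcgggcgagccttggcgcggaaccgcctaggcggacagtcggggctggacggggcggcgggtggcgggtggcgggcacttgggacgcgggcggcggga
Pttg1 (chr11:43425962-43426111, minus strand): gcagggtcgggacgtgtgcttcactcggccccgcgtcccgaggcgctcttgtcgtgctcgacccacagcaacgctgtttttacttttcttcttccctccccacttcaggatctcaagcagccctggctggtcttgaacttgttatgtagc
Ccnb2 held 3 CCAAT boxes before the start and a CHR just inside the transcript. In Kif11 a single CCAAT box, beginning 45 bases before the start, was followed by a CHR beginning 19 bases before it. Mki67 had its CHR letters farther upstream, beginning 116 and 98 bases before the start, and its 3 CCAAT boxes lay beyond the stretch shown. Besides Pttg1, the genes Kif18a, Nuf2, Nusap1, Melk, Mad2l1 and Birc5 held neither motif in their windows.

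**Figure D1:**
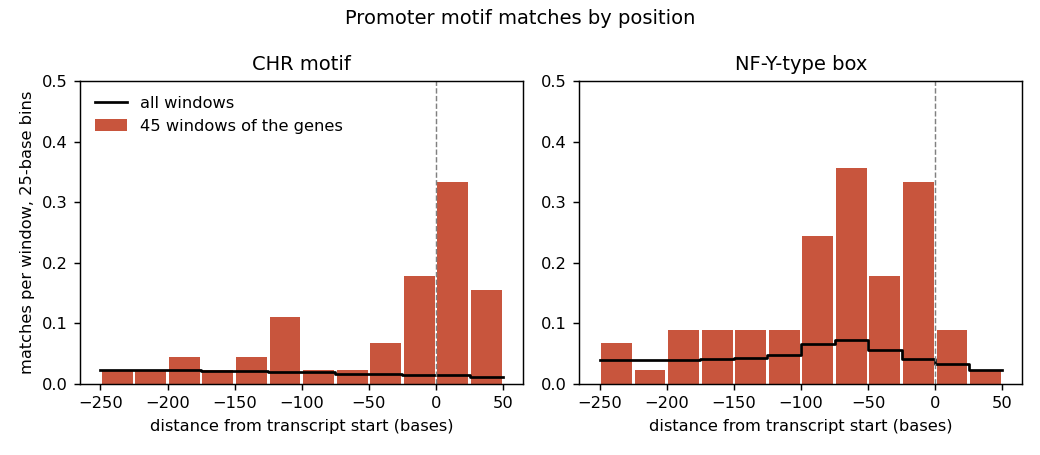
Matches of the CHR (left) and of the CCAAT box (right, titled NF-Y-type box after the factor that binds it) per promoter window, in bins of 25 bases by distance from the transcript start. Bars are the 45 windows of the mitosis genes and lines are all 32851 windows. CHR matches of the mitosis genes peak in the first 25 bases after the start at 0.333 per window, against 0.0144 over all windows, and CCAAT matches peak between 75 and 50 bases before it at 0.356 against 0.0720.

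All 50 genes together made up 0.0613% to 0.291% of a library's counts. Ckap2, for a spindle pole protein, had the highest level per length in each of the 6 groups, with group means of 15.2 to 27.4 CPM per kilobase of exon. The gene next to it differed by group. It was Ccnb2 in WT EV of both series, at 15.4 and 23.5 CPM per kilobase, and Pttg1 in the 4 groups with RAS, at 12.5 to 15.6. The kinesin gene Kif18a had group means of 0.492 to 0.892 CPM per kilobase and was lowest in all groups but DKO RAS, where Cks2 was. Cks2, which encodes a small CDK-binding protein, had 3 to 17 counts per library and was not tested within a series. The other 49 genes had between 19 and 2703 counts in a library.

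Summed over the 50 genes, the level in the S6K1 series was 1468, 1445 and 1389.6 CPM in WT EV, 1241, 1047 and 865 CPM in WT RAS, and 908, 634 and 812 CPM in KO RAS. The 3 groups overlapped only between WT RAS and KO RAS. The S6K1/S6K2 series gave sums of 1231, 2740 and 1548 CPM in WT EV, 1383, 789.5 and 640.4 CPM in WT RAS, and 779, 813 and 1106 CPM in DKO RAS. Here WT RAS overlapped both other groups, and WT RAS replicate 1 lay above WT EV replicate 1. One library, WT EV replicate 2, stood far above the rest: it was the highest of its 3 WT EV libraries for all 49 tested genes, and the highest of all 9 libraries of the series for 48 of them. Libraries of other groups also stood apart for most genes at once. Replicate 1 was highest of WT RAS for 42 of 49 genes in the S6K1 series and for 48 of 49 in the S6K1/S6K2 series, and DKO RAS replicate 3 was highest of its group for 47 of 49. The spread between libraries is thus shared by the genes, whose tests are not independent of each other.

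**Figure D2:**
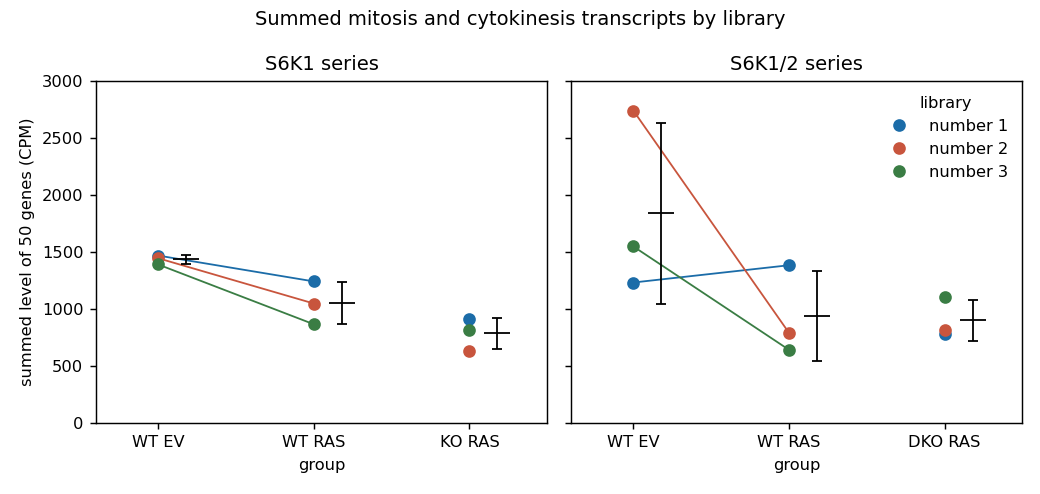
Summed level of the 50 genes in each library, in TMM-scaled CPM, by group, for the S6K1 series (left) and the S6K1/S6K2 series (right). Points are libraries, colored by replicate number, lines join the WT EV and WT RAS libraries with the same number, and black bars give mean ± SD over 3 libraries. The line of replicate 1 in the S6K1/S6K2 series runs upward, from 1231 to 1383 CPM, while the other 5 run downward.

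The first comparison asked how mitotic transcripts move when RAS is added to WT cells. In the S6K1 series 6 of the 49 tested genes fell with an adjusted p under 0.05 (edgeR quasi-likelihood test, Benjamini-Hochberg over 14036 genes) and none rose, where 6.09% of all tested genes were called lower. They were the motor Kif11, the cytokinesis kinesin Kif20b, the scaffold Iqgap3, the topoisomerase Top2a, the proliferation marker Mki67 and the transcription factor Foxm1. The median log2 fold change of the 49 genes was −0.44 and 46 were below 0, against a median of 0.00 and 49.8% below 0 over all genes tested. All 3 WT RAS libraries lay below all 3 WT EV libraries for 25 of the 49 genes, which 15.0% of all tested genes did. An unadjusted p under 0.05 was found for 25 of the 49 genes and for 26.4% of all genes. DESeq2 called 12 lower and 1, Pttg1, higher. The share of all genes called by DESeq2 is not given, here or below, so its counts describe the set only.

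In the S6K1/S6K2 series 16 of the 49 genes fell, against 12.7% of the 13881 genes tested. They were Cdk1, Ccnb2, Ccna2, Plk1, Melk, Nuf2, Spc24, Kif11, Kif2c, Kif15, Nusap1, Kif20a, Kif23, Cdca3, Top2a and Mki67. The median log2 fold change was −1.05 and 48 genes were below 0, against −0.02 and 51.8% over all genes tested. The 3 WT RAS libraries lay below the 3 WT EV libraries for 15 genes, where the background was 21.7%. Kif11, Top2a and Mki67 were called lower in both series, which share no library. The share of all genes called in both was not computed, so this overlap cannot be read as particular to the set. With the replicate number as a block (edgeR), none of these genes passed in the S6K1/S6K2 series (adjusted p 0.051, 0.079 and 0.052).

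Markers of cell type moved with RAS in the same comparisons. The 10 fibroblast markers, all tested, summed to 30366 to 33453 CPM in WT EV and 15250 to 15825 CPM in WT RAS of the S6K1 series, with 4 called lower and 1 higher (median log2 fold change −0.53). They summed to 30781 to 48547 CPM and 13870 to 18656 CPM in the S6K1/S6K2 series, with 5 called lower and 0 higher (median −1.30). The 6 epithelial markers, of which 3 were tested, summed to 4.76 to 10.1 CPM in WT EV and 109 to 149.9 CPM in WT RAS of the S6K1 series, and to 1.32 to 4.01 CPM and 79.1 to 119.97 CPM in the other. All 3 tested were called higher in both series (medians 4.32 and 4.80). Most of the epithelial counts came from Krt18, with 14767 over all 18 libraries. Krt8 had 543, Epcam 178, Cdh1 91, Krt14 13 and Krt5 3. The part of either list in the result was not tested.

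The replicate numbers paired WT EV and WT RAS libraries in both series, and the same comparison with the number as a block gave another picture in each. With the block 27 genes of the S6K1 series were called lower and Pttg1 higher, against a background of 18.1% called lower. The 21 genes called lower there with the block but not without it were Ccna2, Melk, Bub1b, Incenp, Cenpe, Cenpf, Nuf2, Kif15, Kif4, Tpx2, Nusap1, Hmmr, Ckap2, Kif20a, Kif23, Prc1, Ect2, Racgap1, Cdc20, Espl1 and Cdca3. In the S6K1/S6K2 series 3 genes were called lower, Ccna2, Melk and Kif23, where the background was 13.7%. The pairs themselves show the difference, as counts within the set. Shares and medians over all genes were not computed for single pairs, here or in the loss comparisons below. From WT EV to WT RAS of the same number in the S6K1 series, 38, 41 and 48 of the 49 genes were lower in replicates 1, 2 and 3, with median log2 ratios of −0.23, −0.42 and −0.68. In the S6K1/S6K2 series all 49 genes were lower in replicate 2 and 48 in replicate 3, with median log2 ratios of −1.92 and −1.43, but in replicate 1 only 17 were lower and the median was 0.14. In that pair the 14 macrophage markers summed to 1433 CPM with EV and 1046 CPM with RAS, against 162 to 263 CPM in the other 4 WT libraries of the series, and their part in the result was not tested. The corresponding sums of replicates 1 and 2 in the S6K1 series were 2459 to 3811 CPM and those of replicate 3 were 657 and 749 CPM.

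A count of calls in the S6K1/S6K2 series therefore rested on single libraries. Leaving out EV replicate 2, RAS replicate 2 or RAS replicate 3 of the WT cells gave 0 calls each in edgeR, with 9, 18 and 16 genes at p under 0.05 before adjustment. Shares over all genes are not given for these omissions, so the loss of calls cannot be read as particular to the set. DESeq2 was not run on these. The count was 34 of 50 without replicate 1 of EV, where 10.1% of all tested genes were called lower, and 39 of 50 without replicate 1 of RAS, where 10.9% were. Without both libraries of replicate 1, an alternative chosen after seeing the data, 46 of 50 genes were called lower, against a background of 10.2%, and the median was −1.71. Cks2 was among the genes tested in these 3 fits. The median stayed negative in each of these, between −0.62 and −1.46 when 1 library was left out. In the S6K1 series the count was 2 when replicate 2 of EV or of RAS was omitted, 3 when RAS replicate 3 was omitted, and 5 to 7 without each of the others.

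**Figure D3:**
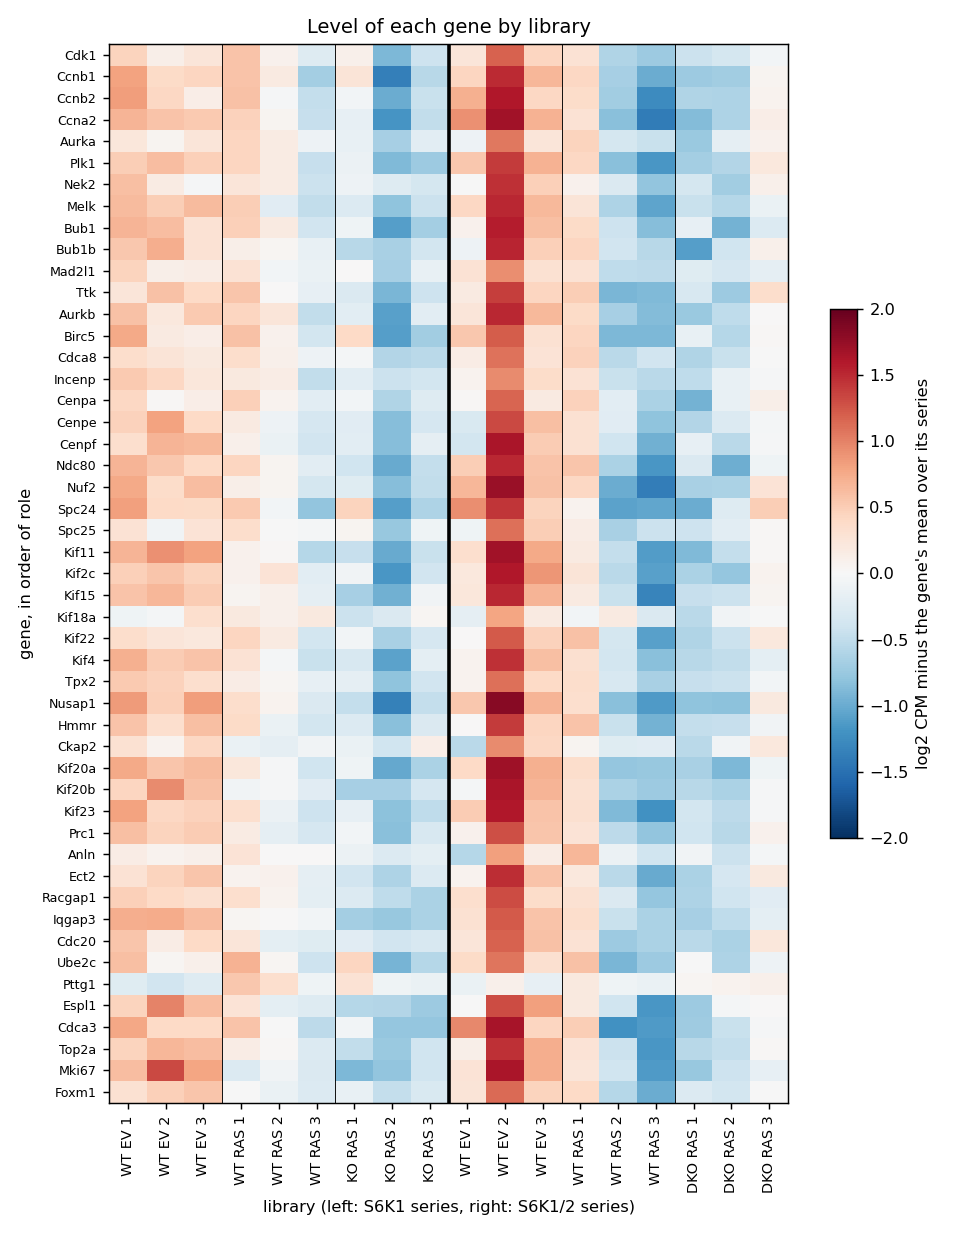
Level of each of the 49 tested genes in each library, as log2 CPM minus the gene's own mean over the 9 libraries of its series. Red is above and blue below that mean. Rows are genes in order of role and columns are libraries. WT EV replicate 2 of the S6K1/S6K2 series is the highest library of its series for 48 genes, and Pttg1 is the 1 row with every WT RAS library above every WT EV library in the S6K1 series.

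Genes are described below by role, with the RAS comparison of each series as log2 fold change (written log2 change in parentheses) and standard error (SE). Calls are those without the block unless it is named. Role counts by edgeR stand against 6.09% of all genes called lower in the S6K1 series and 12.7% in the S6K1/S6K2 series. Those by DESeq2 have no such share beside them. An unadjusted p under 0.05 (edgeR) was found for 26.4% and 39.8% of all genes. Roles were not tested against each other. Cdk1 (ENSMUSG00000019942, chromosome 10 from 68799383 to 68815686, NCBIM37) encodes the kinase that drives entry into mitosis. The S6K1 series had it at 51.99, 41.4 and 45.2 CPM with EV and 56.9, 40.9 and 32.2 CPM with RAS, which overlapped (log2 change −0.09, SE 0.27, adjusted p 0.86). The S6K1/S6K2 series had it at 49.8, 95.96 and 56.9 CPM with EV and 51.6, 27.9 and 25.3 CPM with RAS. It fell there (log2 change −0.95, SE 0.31, adjusted p 0.046), although WT RAS replicate 1 lay within the range of the WT EV libraries. Ccna2 encodes cyclin A2, needed for S phase and early mitosis. Its levels were 44.4, 41.2 and 39.98 CPM in WT EV and 38.02, 28.9 and 20.2 CPM in WT RAS of the S6K1 series (log2 change −0.53, SE 0.27, adjusted p 0.26). They were 56.2, 95.8 and 48.4 CPM with EV and 36.5, 16.6 and 11.3 CPM with RAS in the S6K1/S6K2 series. This was the largest change of the 49 genes in that series (log2 change −1.64, SE 0.44, adjusted p 0.022) and every WT RAS library lay below every WT EV library in both series. Of the 4 tested genes of CDK1 and its cyclins, edgeR called 3 in the S6K1/S6K2 series and 0 in the S6K1 series, where 0 had an unadjusted p under 0.05 and DESeq2 called 0. Ccnb1, for cyclin B1, missed the threshold in both (log2 change −0.44 and −1.22).

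Among the mitotic kinases, Aurka, which encodes the spindle pole kinase Aurora A, had the log2 fold change closest to 0 of all 49 genes in the S6K1 series. It was at 20.1, 17.8 and 20.3 CPM with EV and 23.1, 19.2 and 15.96 CPM with RAS (log2 change 0.00, SE 0.18, adjusted p 1.00). The S6K1/S6K2 series gave 14.99, 33.5 and 19.03 CPM with EV and 21.8, 12.6 and 11.7 CPM with RAS, also overlapping (log2 change −0.55, SE 0.35, adjusted p 0.27). The log2 fold changes of Plk1, whose kinase acts at poles, kinetochores and midbody, were −0.45 and −1.29 in the S6K1 and S6K1/S6K2 series. Those of Melk, a kinase gene of dividing cells, were −0.61 and −1.31. Without the block both passed the threshold in the S6K1/S6K2 series and not in the other, and no gene passed the test of the difference between series given below. With the block Melk was called in both (adjusted p 0.022 in the S6K1 series) and Plk1 in neither (0.071 in the S6K1/S6K2 series). Nek2, for a centrosome kinase, passed in neither.

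Of 4 spindle checkpoint genes edgeR called 0 in either series, with 1 and 2 at an unadjusted p under 0.05, and DESeq2 called 1 and 2. Bub1, whose kinase recruits checkpoint proteins to kinetochores, was at 23.4, 22.5 and 17.8 CPM with EV and 20.2, 16.6 and 11.2 CPM with RAS in the S6K1 series (log2 change −0.41, SE 0.28, adjusted p 0.40). The other series had it at 14.1, 39.1 and 19.99 CPM with EV and 17.3, 9.99 and 7.31 CPM with RAS (log2 change −1.08, SE 0.42, adjusted p 0.082), where WT RAS replicate 1 exceeded WT EV replicate 1. The log2 fold changes of Bub1b, Mad2l1 and Ttk, which also encode checkpoint proteins, lay between −0.53 and −0.20 in the S6K1 series and between −1.03 and −0.74 in the other. Bub1b stood closest to the threshold (adjusted p 0.050 in edgeR, S6K1 series) and was called with the replicate block (adjusted p 0.012).

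The chromosomal passenger complex corrects faulty attachments and later acts in cytokinesis. Of its 4 genes edgeR called 0 in either series, with 1 and 3 at an unadjusted p under 0.05, and DESeq2 called 0 and 2. Aurkb, for its kinase Aurora B, was at 14.8, 11.5 and 14.3 CPM in WT EV and 13.3, 11.7 and 7.06 CPM in WT RAS of the S6K1 series (log2 change −0.34, SE 0.29, adjusted p 0.51). The S6K1/S6K2 series gave 13.6, 32.5 and 18.1 CPM with EV and 14.9, 7.25 and 6.29 CPM with RAS (log2 change −1.17, SE 0.40, adjusted p 0.057). The scaffold gene Incenp, Birc5 for survivin, and Cdca8 for borealin were all below 0 in both series, between −0.41 and −0.14 in the first and between −1.05 and −0.65 in the second.

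At the centromere and kinetochore, edgeR called 2 of 7 genes in the S6K1/S6K2 series and 0 in the S6K1 series, where 3 had an unadjusted p under 0.05 and DESeq2 called 3. Cenpa, for the histone variant that marks centromeres, was at 26.7, 20.2 and 21.9 CPM with EV and 27.96, 21.00 and 17.3 CPM with RAS in the S6K1 series, one of the 3 smallest changes there (log2 change −0.05, SE 0.21, adjusted p 0.90). In the other series it was at 24.2, 53.5 and 27.1 CPM with EV and 32.9, 20.7 and 15.4 CPM with RAS (log2 change −0.61, SE 0.38, adjusted p 0.26), and the groups overlapped. Spc24 and Nuf2 encode subunits of the NDC80 complex, which grips microtubules. Spc24 was at 9.06, 12.7 and 6.46 CPM with EV and 4.96, 2.26 and 2.31 CPM with RAS in the S6K1/S6K2 series and fell (log2 change −1.56, SE 0.46, adjusted p 0.031), and it was at 6.12, 4.54 and 4.48 CPM with EV and 4.94, 3.34 and 2.01 CPM with RAS in the S6K1 series (log2 change −0.56, SE 0.43, adjusted p 0.46). Nuf2 stood at −0.63 in the S6K1 series and fell by 1.53 on the log2 scale in the S6K1/S6K2 series. The log2 fold changes of the partners Ndc80 and Spc25 were −1.17 and −0.85 in the S6K1/S6K2 series and did not pass the threshold, nor did those of Cenpe (−0.86), a kinetochore motor, and Cenpf (−1.08).

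Of the 10 genes for spindle motors and microtubule proteins, 1 was called in the S6K1 series and 4 in the S6K1/S6K2 series. Kif11, for the motor that pushes spindle poles apart, was at 29.8, 34.9 and 32.2 CPM with EV and 19.6, 18.8 and 12.4 CPM with RAS in the S6K1 series, with a wide gap between the groups (log2 change −0.93, SE 0.21, adjusted p 0.019). The S6K1/S6K2 levels were 27.3, 69.4 and 36.4 CPM with EV and 24.4, 15.6 and 9.99 CPM with RAS, again apart although by less between the nearest libraries (log2 change −1.42, SE 0.41, adjusted p 0.030). Nusap1, for a protein that bundles spindle microtubules, was at 20.4, 49.6 and 22.3 CPM with EV and 17.7, 7.85 and 6.38 CPM with RAS in that series (log2 change −1.53, SE 0.48, adjusted p 0.040). It stood in the S6K1 series at 18.7, 14.5 and 18.6 CPM with EV and 13.2, 10.9 and 8.503 CPM with RAS, without overlap (log2 change −0.67, SE 0.26, adjusted p 0.13). Kif18a, which limits chromosome oscillation, had the log2 fold change closest to 0 of this role in both series. It was at 5.28, 5.43 and 7.04 CPM with EV and 6.39, 5.99 and 6.42 CPM with RAS in the S6K1 series (log2 change 0.08, SE 0.20, adjusted p 0.83) and at 6.19, 12.2 and 7.94 CPM with EV and 6.80, 7.97 and 5.74 CPM with RAS in the other, where both ranges overlapped (log2 change −0.36, SE 0.29, adjusted p 0.38). 

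Of the 8 central spindle and cytokinesis genes, Kif20b and Iqgap3 were called in the S6K1 series, and Kif20a and Kif23 in the S6K1/S6K2 series. Kif20a, for a motor that carries the passenger complex to the central spindle, was at 57.5, 50.01 and 52.9 CPM with EV and 40.1, 33.4 and 25.9 CPM with RAS in the S6K1 series (log2 change −0.69, SE 0.24, adjusted p 0.093). It fell in the S6K1/S6K2 series, from 47.7, 117 and 59.00 CPM to 45.7, 21.04 and 21.4 CPM (log2 change −1.34, SE 0.40, adjusted p 0.034). Its relative Kif20b was at 16.7, 23.9 and 18.8 CPM with EV and 11.9, 12.3 and 10.7 CPM with RAS in the S6K1 series, where it fell (log2 change −0.77, SE 0.18, adjusted p 0.020), and at 12.2, 38.9 and 20.2 CPM with EV and 15.5, 8.08 and 7.59 CPM with RAS in the other (log2 change −1.19, SE 0.43, adjusted p 0.064). Anln, for anillin, which links actin and septins at the cleavage furrow, had log2 fold changes near 0 in both series. Its levels were 74.2, 70.5 and 72.1 CPM with EV and 80.9, 67.3 and 67.6 CPM with RAS in the S6K1 series (log2 change −0.01, SE 0.11, adjusted p 0.98). They were 43.7, 114 and 71.3 CPM with EV and 103, 59.3 and 48.9 CPM with RAS in the S6K1/S6K2 series, with WT RAS replicate 1 above both WT EV replicates 1 and 3 (log2 change −0.12, SE 0.35, adjusted p 0.83). Iqgap3 fell by 0.70 on the log2 scale in the S6K1 series with the smallest SE of the called genes (0.12). Kif23 and Racgap1 encode centralspindlin. Kif23 had log2 fold changes of −0.60 and −1.42 in the first and second series and was called in the second. Those of Racgap1 were −0.31 and −0.93, and it was called in neither, but with the block it was called in the S6K1 series (adjusted p 0.023).

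Among genes for ubiquitin-dependent mitotic entry and exit, Cdc20, for an activator of the anaphase-promoting complex, was at 28.8, 21.7 and 25.9 CPM with EV and 23.3, 17.03 and 16.6 CPM with RAS in the S6K1 series (log2 change −0.43, SE 0.17, adjusted p 0.14). The S6K1/S6K2 series gave 25.9, 49.5 and 32.99 CPM with EV and 26.8, 13.3 and 14.2 CPM with RAS (log2 change −0.999, SE 0.35, adjusted p 0.058). Pttg1, for securin, the inhibitor of separase, was the exception of the whole set. In the S6K1 series it was at 20.6, 18.7 and 20.5 CPM with EV and 35.6, 30.7 and 23.1 CPM with RAS. It was the 1 tested gene of the set with every WT RAS library above every WT EV library, and it missed the threshold (log2 change 0.58, SE 0.18, adjusted p 0.068) but passed with the replicate block (adjusted p 0.0064). It was at 27.1, 31.96 and 26.6 CPM with EV and 33.98, 27.8 and 26.9 CPM with RAS in the S6K1/S6K2 series, overlapping (log2 change 0.05, SE 0.13, adjusted p 0.81). Espl1, for separase itself, had log2 fold changes of −0.74 and −1.16 in the same order of series, and passed the threshold in neither without the block and in the S6K1 series with it (adjusted p 0.014). Cdca3, for a protein that helps degrade an inhibitor of mitotic entry, fell by 1.49 on the log2 scale in the S6K1/S6K2 series.

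The last role joins Top2a, Mki67 and Foxm1, and all 3 were called in the S6K1 series. Top2a, for the topoisomerase that untangles sister chromatids, was at 110.0, 128 and 123 CPM with EV and 88.8, 82.2 and 66.6 CPM with RAS (log2 change −0.60, SE 0.14, adjusted p 0.022), and at 94.2, 239 and 143 CPM with EV and 105, 64.3 and 38.9 CPM with RAS in the S6K1/S6K2 series (log2 change −1.19, SE 0.39, adjusted p 0.049). In the second series WT RAS replicate 1 lay above WT EV replicate 1. Mki67, for the chromosome surfactant Ki-67, had the largest change of the S6K1 series, from 93.9, 152 and 105 CPM to 50.6, 57.9 and 49.8 CPM (log2 change −1.15, SE 0.20, adjusted p 0.0055). Its levels in the S6K1/S6K2 series were 67.8, 175 and 93.2 CPM with EV and 66.4, 42.6 and 25.7 CPM with RAS, and it fell there too (log2 change −1.32, SE 0.39, adjusted p 0.034). Foxm1, for an activator of G2 and mitosis genes, fell in the S6K1 series (log2 change −0.59) and was not called in the other (log2 change −0.93).

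**Figure D4:**
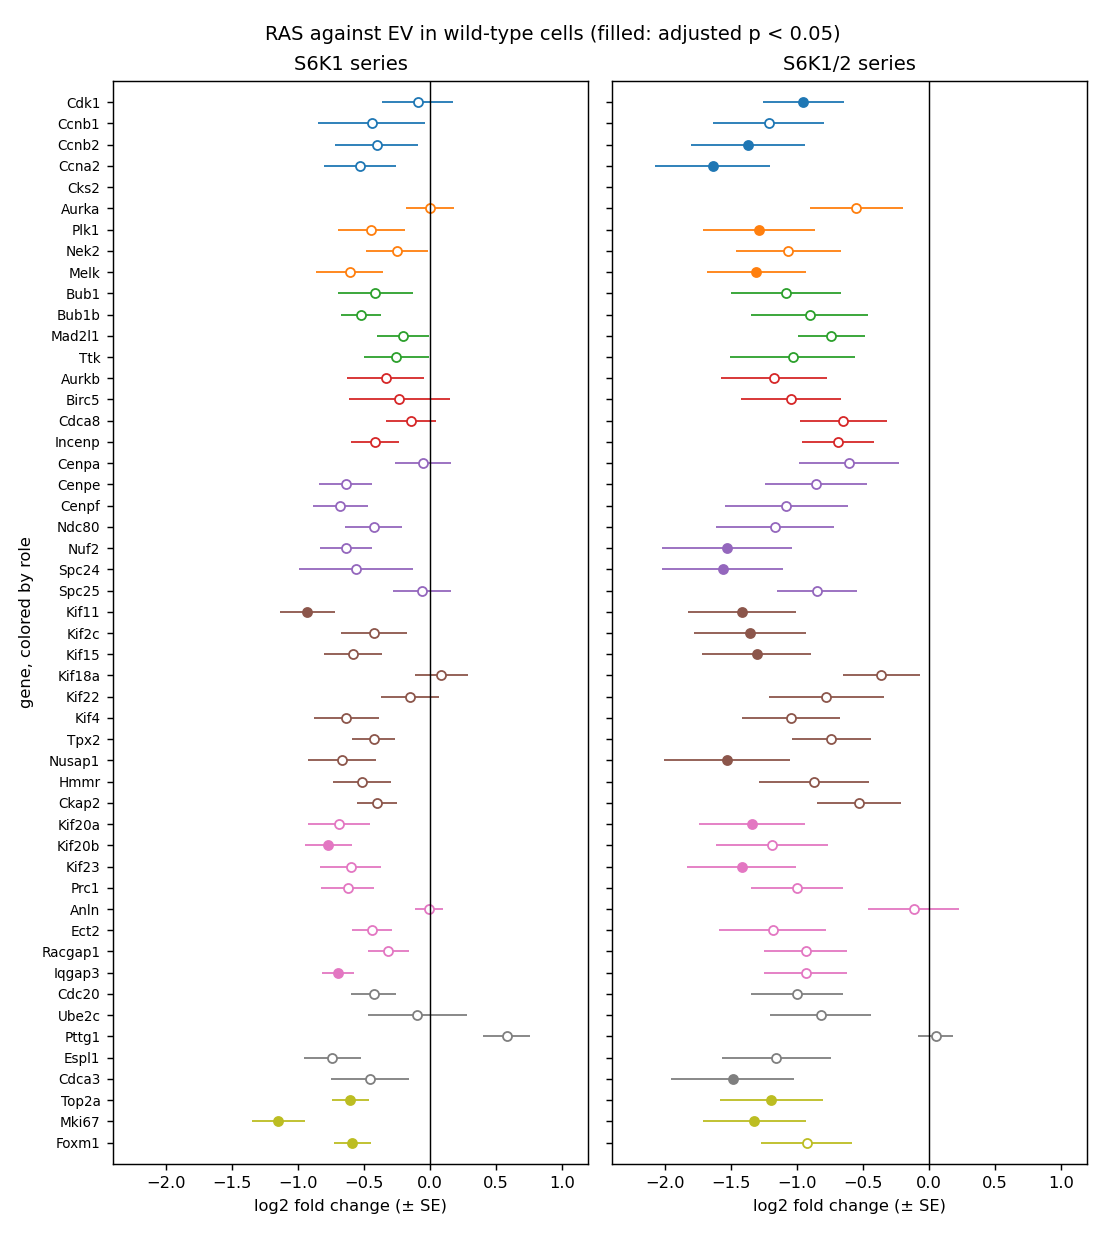
Log2 fold change of WT RAS over WT EV for each gene, with ± 1 SE, in the S6K1 series (left) and the S6K1/S6K2 series (right). Colors mark roles and filled points have an adjusted p under 0.05 (edgeR), 6 at the left and 16 at the right. Cks2 was not tested, and Pttg1 lies to the right of 0 in both panels.

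Whether the RAS change was larger in one series was tested over all 18 libraries, S6K1/S6K2 minus S6K1. No gene of the set passed (edgeR, smallest adjusted p 0.36), of 50 tested here, and 0% of all 14483 genes did. By unadjusted p under 0.05 it was 1 gene, Pttg1, where the background was 12.6%, and DESeq2 called 0. The median of the difference was −0.62 and all 50 were below 0, with a median SE of 0.49 per gene. With 1 library omitted the median ran from −0.24 (EV replicate 2 of the S6K1/S6K2 series) to −1.002 (RAS replicate 1 of that series). Each series was made from its own cultures, and what else differed between the series cannot be told apart from the RAS change.

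The second question was whether loss of the kinases under RAS moves these transcripts. Between KO RAS and WT RAS of the S6K1 series 0 of 49 genes were called (edgeR, smallest adjusted p 0.52), where 0.00712% of all genes were. The median log2 fold change was −0.47, with 48 genes below 0 and a median SE of 0.22, against a median of 0.03 and 43.4% below 0 over all genes. An unadjusted p under 0.05 was found for 20 of the 49 genes, against 6.86% of all genes. DESeq2 called 1, Iqgap3. All KO RAS libraries lay below all WT RAS libraries for 15 genes, against a background of 4.17%. Libraries of the same number paired here too, by the correlations given with the processing. The labels do not say that same-numbered WT and KO cells were littermates. With the number as a block 3 genes were called lower, Iqgap3 (adjusted p 0.0075), Racgap1 (0.012) and Ndc80 (0.044), all by edgeR, where 4.15% of all genes were called in either direction. In that fit 38 of the 49 genes had an unadjusted p under 0.05 (edgeR), against 17.8% of all genes. Iqgap3, a scaffold of proliferating cells, was at 13.5, 13.1 and 12.5 CPM in the WT and 8.17, 7.73 and 8.40 CPM in the KO libraries. Racgap1, for a subunit of centralspindlin, was at 33.7, 28.00 and 23.4 CPM in the WT and 21.98, 18.8 and 17.3 CPM in the KO libraries, and the kinetochore gene Ndc80 at 14.1, 10.8 and 9.06 CPM in the WT and 7.90, 5.20 and 7.49 CPM in the KO libraries. The groups were apart for each of the 3, which are named here because their values were seen. By pairs, all 49 genes were lower in KO RAS in replicates 1 and 2, with medians of −0.49 and −0.76, and 34 of 49 in replicate 3, with a median of −0.10. The median over genes moved between −0.28 without WT RAS replicate 1 and −0.61 without KO RAS replicate 1, and was −0.31 without KO RAS replicate 2, the library with the lowest sum. The macrophage markers moved as well, with all 14 below 0 in this comparison (median −2.19), and their part in the result was not tested.

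Between DKO RAS and WT RAS 0 of 49 genes were called (edgeR, smallest adjusted p 1.00), 0 had an unadjusted p under 0.05 where 1.29% of all genes did, and DESeq2 called 0. The background of calls was 0.0216%. No gene had its groups apart, against 3.05% of all genes with every DKO RAS library below every WT RAS library. The median was −0.02, with 25 genes below 0 and 24 above, and a median SE of 0.40. That SE is close in size to the median change of the S6K1 series, so a change of that size was not resolvable for a typical gene. The single libraries disagreed. Set side by side by number, all 49 genes were lower in DKO RAS in replicate 1 (median −0.85) and all 49 higher in replicate 3 (median 0.88). The DKO and WT cells were not littermates, and their libraries were not paired. The median became 0.39 when WT replicate 1 was omitted and −0.25 when WT or DKO replicate 3 was, so its sign depended on which library was used. All 14 macrophage markers were below 0 here as well (median −2.02), and their part was not tested.

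**Figure D5:**
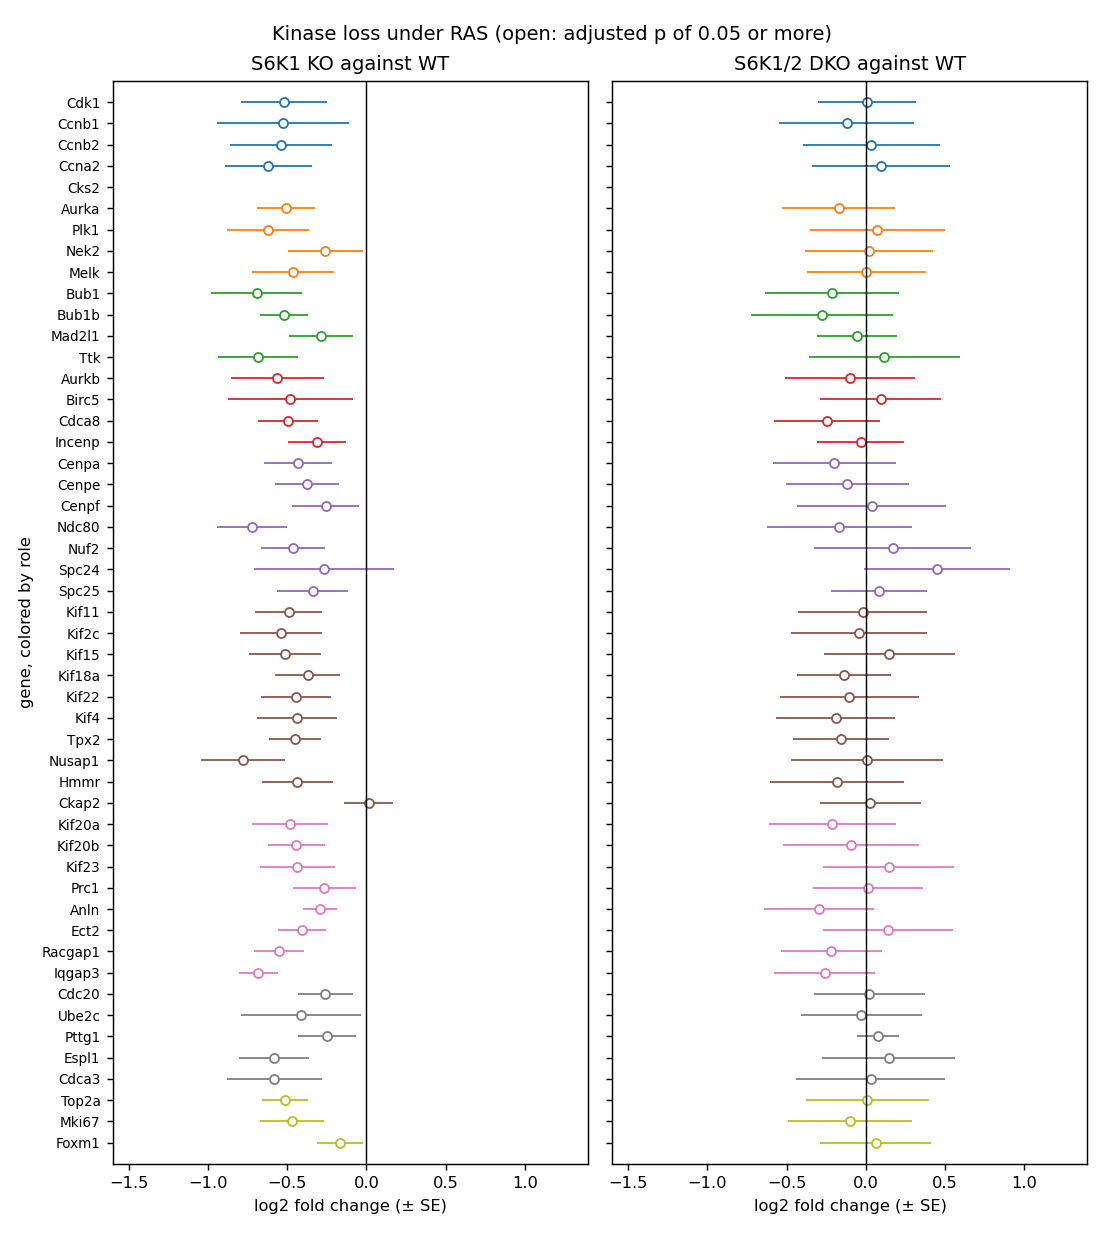
Log2 fold change of S6K1 KO over WT (left) and of S6K1/S6K2 DKO over WT (right), all with RAS, for each gene with ± 1 SE. Colors mark roles, and all points are open because none had an adjusted p under 0.05. At the left 48 of 49 genes lie below 0, and at the right 25 of 49.

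The difference between the loss effects, S6K1/S6K2 minus S6K1, had a median of 0.41 with all 50 genes above 0 and a median SE of 0.50. None passed (edgeR, smallest adjusted p 1.00), where 0.00690% of all genes did, 0 had an unadjusted p under 0.05 against 1.23% of all genes, and DESeq2 called 0. A difference between the losses of 1 and of both kinases was therefore not shown.

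Set against WT EV, in which genotype and RAS cannot be told apart, KO RAS had 32 of 49 genes called lower where 8.56% of all genes were, with a median of −0.94. These libraries paired by number, and with the number as a block 47 of 49 were called lower, against 20.4% of all genes. DKO RAS had 18 of 49 called lower where 12.6% of all genes were, with a median of −1.06. Both share their WT EV libraries with the RAS comparisons above. Mki67 fell most in KO RAS (log2 change −1.62, SE 0.20, adjusted p 0.00091) and Kif20a in DKO RAS (log2 change −1.55, SE 0.40, adjusted p 0.020). In DKO RAS 0 genes were called by edgeR when EV replicate 2 was omitted (12 at an unadjusted p under 0.05), and likewise when DKO replicate 1 or 2 was (22 each). DESeq2 was not run on these. Without KO RAS replicate 2, 19 genes were called in KO RAS, and with all 18 libraries in the fit 15 were. For these fits with libraries left out or added, shares over all genes are not given. The changes in count therefore cannot be read as particular to the set.

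Related genes outside the set were compared from lists compiled for this work. Over all genes tested, 6.09% were called lower with RAS in the S6K1 series and 12.7% in the S6K1/S6K2 series. Of 10 genes of condensin and cohesin protection, 2 were called lower with RAS in the S6K1 series and 5 in the S6K1/S6K2 series (medians −0.43 and −0.90). The condensin gene Ncapd2 fell in both, by 0.89 and 1.09 on the log2 scale. Of 25 further kinetochore and checkpoint genes, 2 were called lower and 1 higher in the S6K1 series, and 6 lower and 2 higher in the S6K1/S6K2 series (medians −0.17 and −0.86). Zwint, for a kinetochore protein, rose in both series, by 0.75 (SE 0.14) and 1.46 (SE 0.21) on the log2 scale. Of 18 further spindle and cytokinesis genes, 4 and 5 were called lower (medians −0.41 and −0.85), among them Fam83d in both series, at −1.02 and −1.67. Lists that carry kinases and phosphatases of mitotic entry (10 genes) and subunits and regulators of the anaphase-promoting complex (15 genes) had medians near 0 in the S6K1 series, at 0.08 and −0.06, and of −0.37 and −0.34 in the other. Of the 15 genes edgeR called 1 lower in the S6K1 series and 3 in the other. The subunit gene Anapc5 was called lower in both (log2 change −0.38 and −0.66, adjusted p 0.029 and 0.011). Wee1, for the kinase that restrains CDK1, rose in the S6K1 series (log2 change 0.56, SE 0.15, adjusted p 0.041), and Fbxo5, for an inhibitor of the anaphase-promoting complex, fell in the S6K1/S6K2 series (log2 change −1.40, SE 0.43, adjusted p 0.039). Of these 78 further genes edgeR and DESeq2 called 0 in either loss comparison without the block. In KO RAS against WT RAS 59 were below 0 (median −0.22), and edgeR with the block called 1 lower. There 18 had an unadjusted p under 0.05 without the block, against 6.86% of all genes. In DKO RAS against WT RAS 46 were below 0 (median −0.02), and 0 had an unadjusted p under 0.05, against 1.29% of all genes. Of 12 genes of the DREAM and MuvB complexes, B-MYB and the pocket protein RB, which is related to the DREAM subunits p107 and p130 but is not itself one, edgeR called 0 in the S6K1 series, where 1 had an unadjusted p under 0.05 and DESeq2 called 1. In the S6K1/S6K2 series 3 were called lower and 2 higher, with Mybl2, for B-MYB, lower (log2 change −1.42, SE 0.41, adjusted p 0.031) and Rb1, for the retinoblastoma protein, higher (log2 change 1.31, SE 0.21, adjusted p 0.0021). Of 34 DNA replication genes, edgeR called 0 in the S6K1 series (median −0.16), with 6 at an unadjusted p under 0.05 and 1 called by DESeq2, and 17 were called lower in the S6K1/S6K2 series (median −0.83), led by Ccne2, Prim1 and Mcm3, which fell by 1.68, 1.68 and 1.63 on the log2 scale. In KO RAS against WT RAS 31 of the 34 replication genes were below 0 (median −0.33). EdgeR called 0 there, with 7 at an unadjusted p under 0.05, and 2 lower with the block. In DKO RAS against WT RAS 14 of the 34 were below 0 (median 0.01). CHR letters were in 22.2% of the 27 DNA replication genes with a window and in 32 of the 64 further mitosis genes with one.

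The RAS comparisons were also read by promoter class, as a description. The median log2 fold change of the 32 genes with a CHR was −0.43 in the S6K1 series and −1.04 in the S6K1/S6K2 series, and that of the 10 tested genes with a window but no CHR was −0.35 and −1.05. The 7 genes with neither motif ranged from −0.67 to 0.58 in the S6K1 series, and from −1.53 (Nuf2, Nusap1) to 0.05 (Pttg1) in the other.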

How the data were processed

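Stranded single-end RNA-seq libraries were prepared from poly(A) RNA of 18 MEF cultures. The authors aligned the reads and deposited raw read counts per gene, 1 table with 55401 identifiers, of which 25336 had no count. The aligner behind the deposited counts is not settled: the methods name TopHat, HTSeq and mm9, and the submitters' processing notes list STAR 2.7.1a, mm10 and DESeq2 1.28.1. Identifiers were paired with symbols, NCBIM37 positions and exon lengths through the given annotation. Library totals ran from 8319445 to 14402442 counts. The fit was checked on simulated counts with known changes. It called 8% of 1.5-fold and 64% of 2-fold changes in the RAS comparison of the S6K1 series. For the S6K1/S6K2 series these shares were 12% and 62%, and 4-fold changes were called at 98% in both.

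Counts were fitted with edgeR 4.0.16 (R 4.3.3; quasi-likelihood test, TMM, filterByExpr with a minimum count of 10) over the 9 libraries of a series with group as the only term, and over all 18 libraries for differences between series. P-values were adjusted over all genes tested (Benjamini-Hochberg, threshold 0.05), and SE was the log2 fold change divided by the root of the F statistic. Gene set tests were not run. P-values measure the spread between these cultures. Same-numbered libraries were checked by the correlation of their deviations from the group means. It was 0.725, 0.467 and 0.679 between WT EV and WT RAS of the S6K1 series, 0.370, 0.291 and 0.321 in the S6K1/S6K2 series, 0.725, 0.419 and 0.630 between WT RAS and KO RAS, and 0.683, 0.535 and 0.522 between WT EV and KO RAS, so a replicate block was fitted for these. No 2 libraries of a group agreed within sampling noise (lowest chi-square per degree of freedom 7.98). Alternatives were DESeq2 1.42.0, other scalings and filters, other sets of libraries, the block, and leaving out each library. Libraries of 1 replicate number were left out together as an alternative chosen after seeing the data. The genes and lists were chosen with earlier results of these data known. Values by library are given for the 3 largest and 3 smallest changes in each RAS comparison and for the first gene of every role.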

Additional observations from a re-analysis of the deposited data

How the results depend on the processing

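Over the alternatives run, the median log2 fold change of the mitosis genes kept its sign in both RAS comparisons, in KO RAS against WT RAS and in both differences between series, and the ratio of summed levels moved by less than the spread between libraries under other scalings. In DKO RAS against WT RAS the median changed sign with the library left out, from −0.25 to 0.39. Counts of genes called moved more. They are counts within the set, and shares over all genes are given above for only some of these fits. With RAS in the S6K1 series 6 genes were called lower, against 12 with DESeq2, 27 with the replicate block, 1 with all 18 libraries in the fit, and 2 to 7 when 1 library was left out. Without both WT libraries of replicate 1, 2 or 3 the counts were 3, 1 and 2. In the S6K1/S6K2 series 16 were called, against 33 with DESeq2, 41 with no filter, 3 with the replicate block, 2 with only the 6 compared libraries, 33 with all 18, and 0 to 39 when 1 library was left out. Without both WT libraries of replicate 1 it was 46, with a median of −1.71, without replicate 2 it was 0 with a median of −0.51 (0 genes at an unadjusted p under 0.05 in edgeR), and without replicate 3 it was 1. KO RAS against WT RAS had 0 calls, 1 with DESeq2 (Iqgap3) and 3 with the replicate block. KO RAS against WT EV had 32, 47 with the replicate block, 15 with all 18 libraries and 19 to 33 when 1 library was left out. DKO RAS against WT EV had 18, 31 with DESeq2, 43 with no filter, 36 with all 18 libraries and 0 to 35 when 1 library was left out. DKO libraries did not pair with WT libraries (correlations of 0.271, 0.472 and −0.042 with WT RAS), and the replicate block gave 6 calls against WT EV and 0 against WT RAS. Small RAS changes reversed, none past the threshold. In the S6K1 series, Aurka was at −0.00064 with upper-quartile scaling and −0.00050 with the replicate block, Anln at 0.00087 with no filter and 0.010 with all 18 libraries. With 1 library or both WT libraries of a number left out there, Aurka ran from −0.14 to 0.16, Anln from −0.10 to 0.051, Cenpa from −0.26 to 0.092, Cdk1 from −0.34 to 0.082 and Kif18a from −0.0063 to 0.22. The same omissions in the S6K1/S6K2 series took Anln from −0.78 to 0.39 and Pttg1 from −0.10 to 0.18. The cause was not tested. Cks2 had 3 to 17 counts a library, and why its counts were low was not tested.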
